A study of Rattus norvegicus with 22 samples.

Results

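The liver makes the acute phase proteins, and 9 of their genes, A2m, Orm1, Lcn2, Crp, Apcs, Saa4, Hp, Hpx and Itih4, were followed in the livers of 22 male Sprague–Dawley rats that ate a control diet or a diet enriched with biologically active substances. All 9 genes were found on the array by their gene name, upper and lower case ignored, through 11 probes and 21 spots out of 30367 probes for 26276 gene names. All 11 probes were well above background in the rat's channel on all 22 arrays and passed the filter on dim probes, which kept 19434 probes. The genes were picked by the class of protein they encode, with earlier results of these data known.

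The rats were 8 weeks old at the start according to the methods. In the BASE-diet (biologically active substances-enriched diet) 6% salmon fat took the place of lard, and 8% hydrolysed linden inflorescence extract, 8% pumpkin puree and 1% of a pair of probiotic strains were added. After 3 months of feeding there were 5 rats on the control diet (CD 3) and 5 on the BASE-diet (BD 3). After 14 months each diet had 6 rats, named CD 14 and BD 14. Both diets were semi-synthetic. Rats that ate for 14 months were also older than those that ate for 3 months, so duration of feeding and age cannot be told apart, and no treatment that provokes inflammation was part of the design. RNA of each liver was labelled with Cy5 and hybridised beside a common reference RNA of healthy 10-week-old rats labelled with Cy3, 1 array per rat. The methods describe the dyes differently, as Cy3 for control rats and Cy5 for BASE-diet rats. The labels of all 22 arrays were followed, and no dyes were swapped.

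Acute phase proteins are plasma proteins whose synthesis in hepatocytes changes when interleukin-6, interleukin-1 and tumour necrosis factor reach the liver. Interleukin-6 acts through the receptor subunit gp130 and the transcription factor STAT3, and interleukin-1 and tumour necrosis factor act through NF-kB and factors of the C/EBP family. Species differ in which proteins react most: alpha-2-macroglobulin (A2m) is a strong reactant of the rat and is scarce in the healthy adult rat, while C-reactive protein (Crp), the classical reactant of man, circulates in rats at a high level all the time. Lipocalin 2 (Lcn2) binds bacterial siderophores, alpha-1-acid glycoprotein (Orm1) carries drugs and basic lipophilic molecules, haptoglobin (Hp) binds free haemoglobin, and hemopexin (Hpx) binds free haem.

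The probes are 60 bases long, and the sequences below are shown because a ratio reports only the transcript to which these letters bind. Positions are those of the array files in the rat build rn4, and whether a position lies in an exon or a UTR was not looked up, since no annotation of that build was used here. The A2m probe with the higher signal (A_64_P038873) lies at chr4:158152445-158152504 on the plus strand and the Orm1 probe (A_44_P146845) at chr5:80326525-80326584 on the plus strand. The Crp probe (A_44_P252529) lies at chr13:88702243-88702302 on the plus strand and the Hp probe (A_64_P013758) at chr19:39443156-39443215 on the minus strand. The Hpx probe (A_44_P1037806), the only one of the 11 with 1 spot, lies at chr1:163319663-163319722 on the minus strand. Each of these probes can be read in at least 1 frame without an inner stop codon. Capitals mark the start codon that opens the Crp probe and the stop codon that ends the Hp probe.
A2m: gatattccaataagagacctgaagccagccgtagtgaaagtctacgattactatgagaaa
Orm1: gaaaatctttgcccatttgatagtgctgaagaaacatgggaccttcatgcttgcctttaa
Crp: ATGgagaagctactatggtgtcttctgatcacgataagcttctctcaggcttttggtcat
Hp: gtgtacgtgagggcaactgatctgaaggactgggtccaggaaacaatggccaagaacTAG
Hpx: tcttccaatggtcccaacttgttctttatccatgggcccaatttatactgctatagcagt

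The other probes lie at chr3:11511592-11511651, minus strand (Lcn2), chr13:89113186-89113245, minus strand (Apcs), chr16:6334720-6334779, plus strand (Itih4), chr4:158153349-158153408, plus strand (the second of A2m), and chr1:97278453-97278512 and chr1:97280209-97280268, minus strand (both of Saa4). The rat genome holds close relatives of several of these genes, and a probe may also bind their transcripts. Where 2 probes report a gene, the one with the higher mean signal is described unless stated.

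Promoters of 6 of the 9 genes (Orm1, Lcn2, Crp, Apcs, Hpx and Itih4) are in the RefSeq table of build GRCr8, as 250 bases before and 50 after the start of the gene. A2m, Hp and Saa4 had no entry. Motifs of the factors named above were searched on both strands, a STAT3 type site (TTCNNNGAA), a C/EBP core (TTGCNNAA) and an NF-kB motif. They are found in 8.87%, 10.6% and 19.3% of all 33469 promoters of the table. The C/EBP core was found in the promoters of Orm1, Lcn2, Hpx and Itih4, the NF-kB motif in those of Orm1 and Lcn2, and the STAT3 type site in that of Itih4, where the pattern TTCNNNGAA matches on both strands. In the Lcn2 promoter 2 matches to the NF-kB motif, 1 on each strand, overlap. The promoters of Crp and Apcs held none of the motifs. A match is a description of these letters only. The stretches below show 1 match each in capitals with its flanks, all upstream of the start of the gene: the C/EBP core of Orm1 (chr5:81788366-81788413, printed as the plus strand, where the motif matches as its reverse complement), the forward NF-kB match of Lcn2 (chr3:36081994-36082030, minus strand), and the STAT3 type site of Itih4 (chr16:6086876-6086924, plus strand), all in GRCr8.
Orm1: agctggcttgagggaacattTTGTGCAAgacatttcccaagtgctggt
Lcn2: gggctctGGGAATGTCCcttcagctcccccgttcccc
Itih4: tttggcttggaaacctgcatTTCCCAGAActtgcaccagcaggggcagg

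Values are log2 ratios of a rat's Cy5 signal to the Cy3 signal of the reference on the same array, so that 0 means the level of the reference and 1 means a doubling. The 22 arrays lay on 5 slides, called A to E here. Slide A held BD 3 rats 3 to 5 and CD 14 rats 1 to 3, slide B CD 3 rat 1 and BD 3 rats 1 and 2, slide C CD 14 rats 4 and 5 and all 6 rats of BD 14, slide D CD 3 rats 2 to 4, and slide E CD 3 rat 5 and CD 14 rat 6. Between 52.4% and 93.6% of the spots that are no controls were well above background in Cy5, and the lowest share was that of CD 3 rat 4. CD 3 rat 1 and CD 14 rat 1 had 4.44% and 4.05% of non-uniform spots, against at most 0.0630% on the other arrays. No spot was flagged as saturated (0% on each array). The 10 hepatocyte markers examined (among them Alb, Ttr and Cps1) were all measured well enough to be tested, as the label liver requires. In whole liver, fewer cells of a type and less RNA per cell cannot be told apart.

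No gene of the set passed a Benjamini-Hochberg adjusted p of 0.05 in limma in any comparison of groups. The same held for all 19434 probes tested (0% in each of the 4 comparisons), of which 7.11% (BD 3 against CD 3), 4.6% (BD 14 against CD 14), 10.1% (CD 14 against CD 3) and 7.44% (BD 14 against BD 3) had an unadjusted p under 0.05. The count of 0 over all probes did not hold under each alternative: without CD 3 rat 5, 205 probes passed for CD 14 against CD 3 and 93 for BD 3 against CD 3, Cy5 alone gave 221 for BD 3 against CD 3, and array weights gave 99 for BD 14 against BD 3. Of the 9 genes, 0, 1, 5 and 1 had an unadjusted p under 0.05 in the same order. With the F test and Tukey's HSD of the methods 0, 0, 3 and 0 had a Tukey p under 0.05, beside 2.08%, 0.952%, 3.11% and 2.16% of all probes. The paper, which used these tests, reports 3017 differentially expressed genes. The values its authors deposited for 3017 probes include those of Lcn2, Hpx and Itih4. Whether the diet difference changed with time was tested as an interaction in the limma model fitted across all probes. No gene of the set had an unadjusted p under 0.05 there (0 of 9, with a lowest limma p of 0.110 for Itih4 and an adjusted p of 0.999), beside 4.8% of all probes, 2.48% with a positive and 2.32% with a negative value. Statements on groups below therefore describe levels and their spread. P-values measure the spread between the arrays of a group, which holds differences between slides as well as between rats. The main model had no term for slide, and all BD 14 rats shared slide C. The comparisons share groups with each other.

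A2m, a protease inhibitor, had the widest range of ratios, 7.36 on the log2 scale beside 7.14 for Lcn2, while in the Cy5 signal Lcn2 had the wider one (8.84 beside 7.77). In CD 3 the log2 ratios of rats 1 to 5 were -1.07, -1.05, -1.21, -1.82 and -2.27. In BD 3 they were -1.24, -2.73, -0.99, -0.89 and -1.61. All 10 rats of 3 months lay below the reference. In CD 14 the log2 ratios of rats 1 to 6 were -1.69, -2.61, -1.73, 2.23, -0.51 and -0.66. In BD 14 they were -2.77, 2.97, -2.33, -3.24, 4.12 and -1.48. Thus 3 rats, CD 14 rat 4 and BD 14 rats 2 and 5, had A2m above the reference, and the other 19 rats had it below, with a gap of 2.74 between the highest of the 19 and the lowest of the 3.

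The second A2m probe placed the same 3 rats above the reference, at 2.02 (CD 14 rat 4), 2.90 (BD 14 rat 2) and 3.83 (BD 14 rat 5), and all others between -2.88 and -0.51. The pattern was also seen in the Cy5 signal by itself. Its log2 values were 11.70, 13.37 and 13.99 in the 3 rats, 10.66 in CD 14 rat 6, and between 6.22 and 9.72 in the remaining rats. The Cy3 signal of the reference, which is labelled as the same RNA on all arrays, lay between 8.54 and 11.32. These signals were not scaled between arrays, and the brightness of an array is part of them. The median Cy5 signal of an array ran from 44.2 (CD 3 rat 4) to 165 (CD 14 rat 1). Both diets at 14 months thus held rats with high and rats with low A2m. All 3 rats with high A2m lay on slide C, which held the 6 BD 14 rats and CD 14 rats 4 and 5, and so also rats with low A2m.

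The group means of A2m were -1.48 ± 0.54 (SD, n = 5) in CD 3, -1.49 ± 0.75 (n = 5) in BD 3, -0.83 ± 1.69 (n = 6) in CD 14 and -0.46 ± 3.17 (n = 6) in BD 14. The SD of BD 14 was so wide that 0.0154% of the 19434 probes tested had one at or above it in that group, where the median SD was 0.39. In CD 14 this share was 0.659% and in BD 3 it was 9.87%, while in CD 3 it was 66.1%. The mean differences, 0.37 (SE 1.03) for BD 14 against CD 14 and 1.04 (SE 1.08) for BD 14 against BD 3, were smaller than, or about as large as, their standard errors (limma adjusted p = 0.978 and 0.838). When single arrays were left out, the first ran from -0.54 (without BD 14 rat 5) to 0.98 (without CD 14 rat 4), with -0.31 without BD 14 rat 2, and the second from 0.12 (without BD 14 rat 5) to 1.59 (without BD 14 rat 4). With slide as a block both turned to negative values, -1.32 and -1.62.

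**Figure D1:**
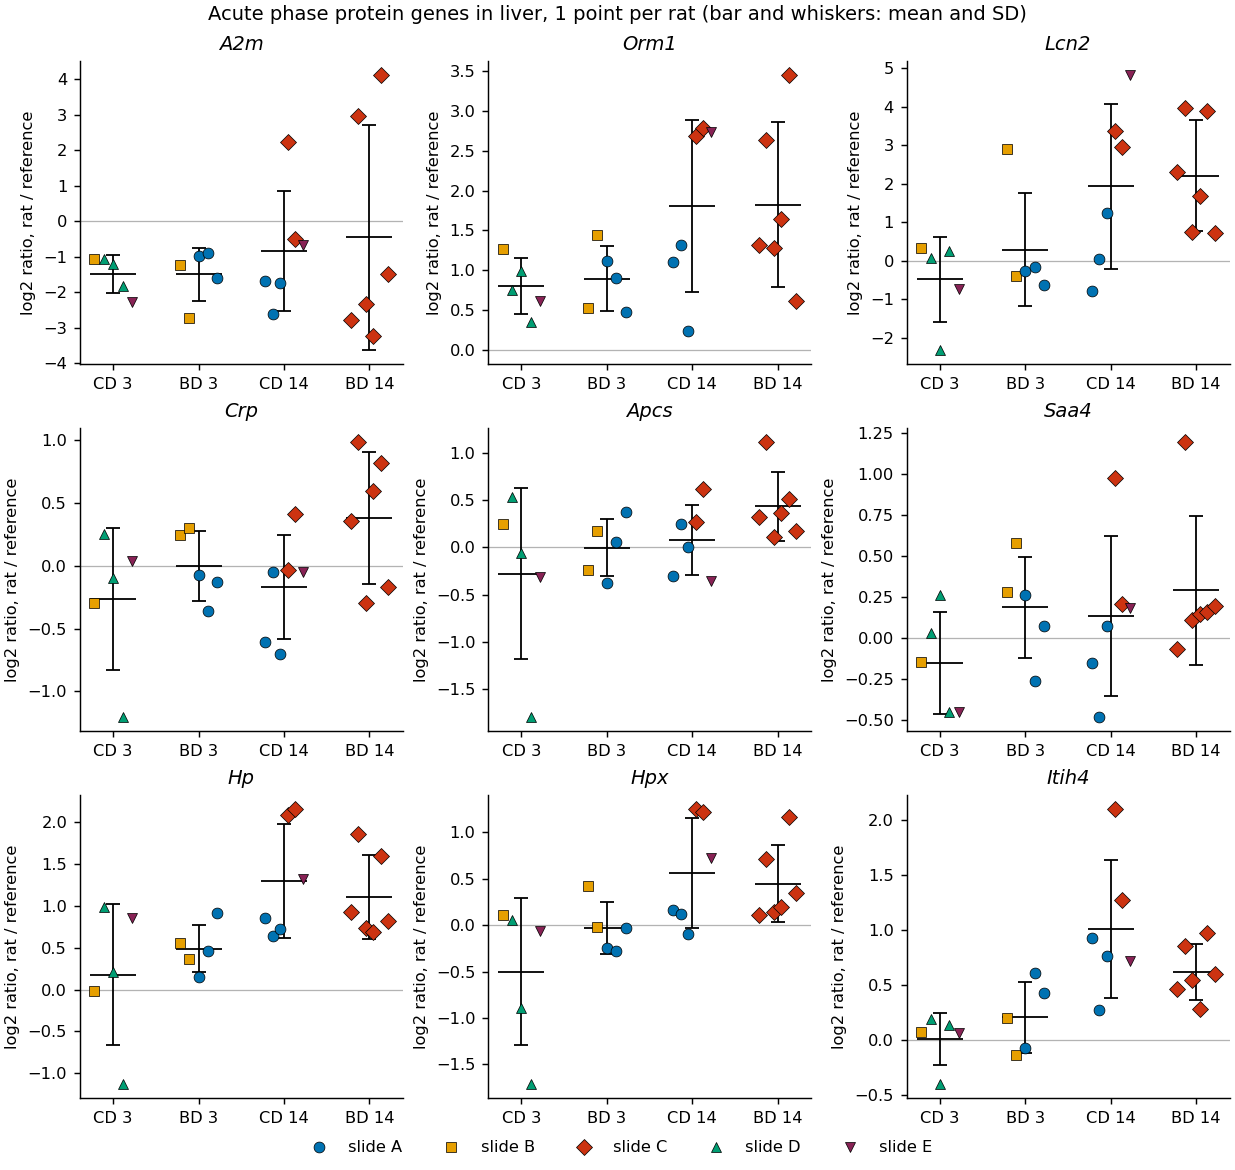
Log2 ratio of each rat to the common reference (y axis, its scale differing between panels) for the 9 genes in the 5 rats of each 3-month group and the 6 of each 14-month group; the bar and whiskers are the mean and SD, and symbols name the slide. The spread of A2m is narrower at 3 months than at 14 months, where it reaches from -3.24 to 4.12 in BD 14. In CD 14 the 3 highest values of A2m, Orm1 and Lcn2 belong to the rats that were not on slide A.

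Orm1, a major carrier glycoprotein of plasma, was above the reference in all 22 rats. Its log2 ratios were 1.27, 0.76, 0.99, 0.35 and 0.62 in CD 3 rats 1 to 5. They were 0.53, 1.45, 1.11, 0.91 and 0.48 in BD 3 rats 1 to 5. The range of both 3-month groups was thus 0.35 to 1.45, with overlap between the diets. In CD 14 rats 1 to 6 the log2 ratios were 1.10, 1.31, 0.24, 2.68, 2.78 and 2.74. In BD 14 rats 1 to 6 they were 1.31, 2.63, 1.28, 1.64, 3.45 and 0.61. A set of 5 rats, CD 14 rats 4 to 6 and BD 14 rats 2 and 5, lay between 2.63 and 3.45, and the remaining 17 rats lay at or below 1.64.

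The 3 rats with high A2m were among these 5. The Cy5 signal of Orm1 separated the same 5 rats, at log2 values of 15.31 to 16.45 against at most 14.20 in the others. The mean of CD 14 was 1.81 ± 1.08 (SD, n = 6), and that of CD 3 was 0.80 ± 0.35 (n = 5), a difference of 1.01 (SE 0.47, unadjusted p = 0.0441, limma adjusted p = 0.478). Its size was 1.00 in Cy5 alone and 0.99 with slide as a block, where the unadjusted p was no longer under 0.05. Leaving out CD 14 rat 4, 5 or 6 or CD 3 rat 2, 3, 4 or 5 also ended it. BD 14, with a mean of 1.82 ± 1.03 (n = 6), differed from CD 14 by 0.02 (SE 0.45, adjusted p = 0.998).

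**Figure D2:**
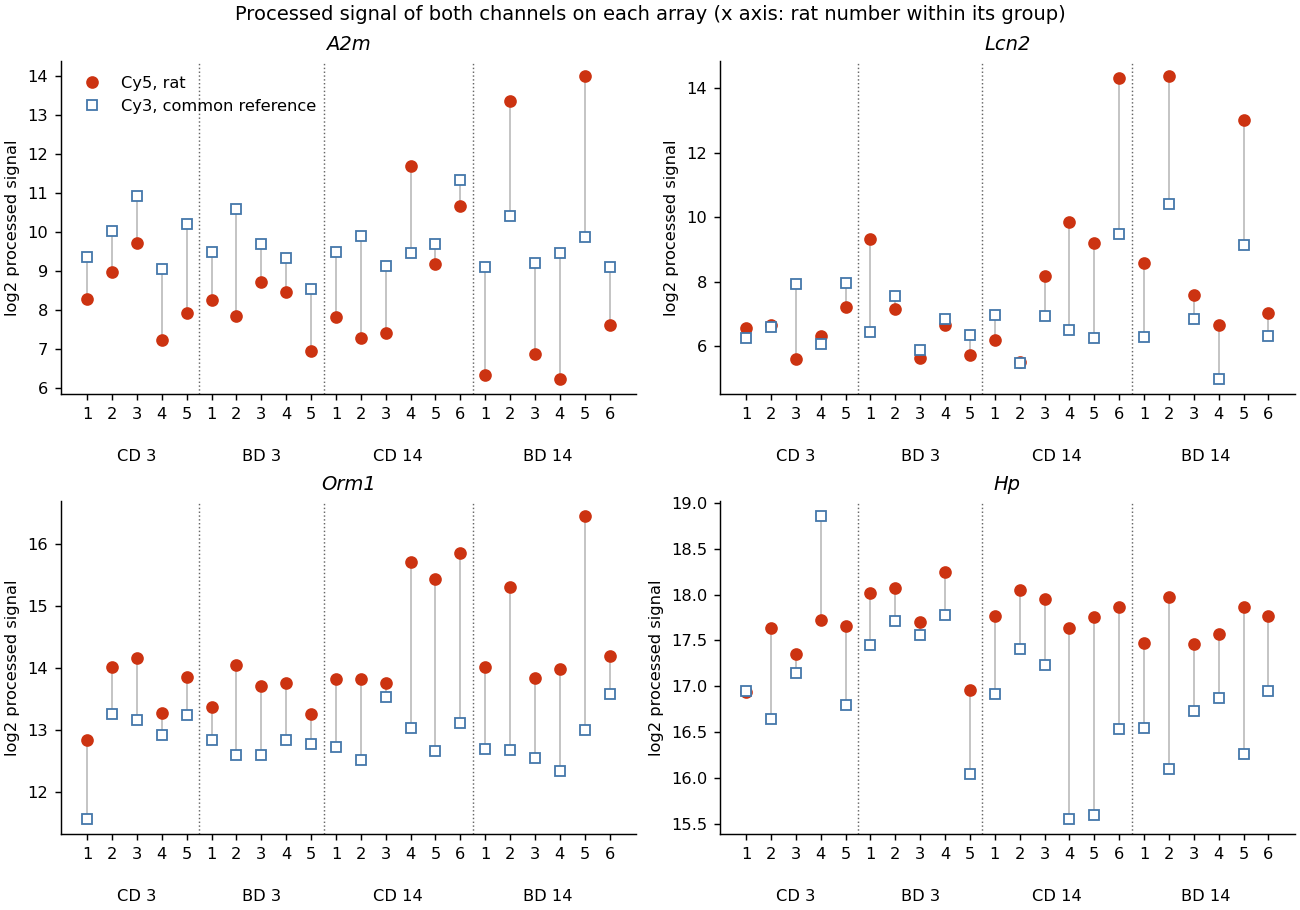
Log2 processed signal of the rat (Cy5, filled circles) and of the common reference (Cy3, open squares) for A2m, Lcn2, Orm1 and Hp on each of the 22 arrays, numbered by rat within the 4 groups. For A2m and Orm1 the high ratios go with a high Cy5 signal, for Lcn2 the Cy3 signal is also high on 3 of those arrays, and for Hp the Cy5 signal differs little while the Cy3 signal reaches from 15.55 to 18.85.

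Lcn2, an iron-scavenging protein of innate defence, had its widest spread in CD 14. Its log2 ratios in CD 3 rats 1 to 5 were 0.32, 0.06, -2.32, 0.24 and -0.73. In BD 3 rats 1 to 5 they were 2.89, -0.41, -0.26, -0.16 and -0.63. Single rats lay far from their group, CD 3 rat 3 below it and BD 3 rat 1 above it, and the other 4 rats of BD 3 were between -0.63 and -0.16. In CD 14 rats 1 to 6 the log2 ratios were -0.80, 0.05, 1.22, 3.37, 2.95 and 4.82. In BD 14 rats 1 to 6 they were 2.29, 3.95, 0.75, 1.67, 3.88 and 0.72. All 6 rats of BD 14 were above the reference, and the 5 rats with high Orm1 had the 5 highest Lcn2 ratios of all 22.

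The mean of Lcn2 was -0.49 ± 1.11 (SD, n = 5) in CD 3 and 1.94 ± 2.14 (n = 6) in CD 14, a difference of 2.42 (SE 0.90, unadjusted p = 0.0139, adjusted p = 0.361), or 5.36-fold. It was 0.29 ± 1.46 (n = 5) in BD 3 and 2.21 ± 1.45 (n = 6) in BD 14, a difference of 1.92 (SE 0.90, unadjusted p = 0.0451, adjusted p = 0.657), or 3.79-fold. With slide as a block the first difference was 3.57 and the second 0.22. The diets differed by 0.77 (SE 0.94) at 3 months, and by 0.12 without BD 3 rat 1. At 14 months they differed by 0.27 (SE 0.86), and by values from -0.27 (without CD 14 rat 1) to 0.85 (without CD 14 rat 6) when single arrays were left out.

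The Cy3 signal of Lcn2 was not level. It had log2 values of 9.49 on the array of CD 14 rat 6, 10.41 on that of BD 14 rat 2 and 9.12 on that of BD 14 rat 5, which were the 3 arrays with a Cy5 value above 13, and between 4.98 and 7.96 on the others. The labels give the same reference RNA for each array, and the part of this signal in the ratios was not tested. In the Cy5 channel alone, after quantile normalization, CD 14 was 1.98 above CD 3 and BD 14 was 2.82 above BD 3, and neither had an unadjusted p under 0.05.

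Crp and Apcs are the short pentraxins, which bind phosphocholine and amyloid, and their ratios spanned 2.19 and 2.91 on the log2 scale over all rats. The log2 ratios of Crp had a lowest, median and highest value of -1.21, -0.10 and 0.25 in CD 3 and of -0.36, -0.07 and 0.30 in BD 3. In CD 14 the 6 rats were at -0.61, -0.05, -0.70, -0.04, 0.41 and -0.05, and in BD 14 at 0.36, 0.99, -0.30, 0.60, 0.82 and -0.17. Hence 3 rats of BD 14 were above all rats of CD 14, while the others overlapped. The difference between these groups was 0.55 (SE 0.26, unadjusted p = 0.0486, adjusted p = 0.952). It was 0.19 between the rats of both groups on slide C and 0.16 in the Cy5 channel alone, and the unadjusted p stayed under 0.05 in 5 of the 22 fits that each left out 1 array.

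Apcs, the serum amyloid P component, had group means of -0.28 ± 0.91 (SD, n = 5) in CD 3, -0.00177 ± 0.31 (n = 5) in BD 3, 0.08 ± 0.37 (n = 6) in CD 14 and 0.43 ± 0.36 (n = 6) in BD 14. All 6 rats of BD 14 were above the reference, from 0.11 to 1.12, and overlapped with each of the other groups. The lowest rat was CD 3 rat 4 with -1.80. The same rat was lowest of all 22 in Crp (-1.21), Hp (-1.13) and Hpx (-1.72), and it is the array with the fewest spots well above background. It was also the lowest rat of CD 3 in the mean of the 10 hepatocyte markers (-1.91, group median -0.42). In the mean of the neutrophil and monocyte markers it was the highest of CD 3 (0.39). Without it the difference of CD 14 from CD 3 in Apcs, 0.36 with all rats, was -0.02.

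Saa4, the constitutive serum amyloid A of high-density lipoprotein, was close to the reference in most rats. Its lowest, median and highest log2 ratios were -0.45, -0.14 and 0.27 in CD 3, -0.26, 0.26 and 0.58 in BD 3, -0.48, 0.13 and 0.98 in CD 14, and -0.06, 0.16 and 1.20 in BD 14. The highest values were those of BD 14 rat 2 and CD 14 rat 4, both with high A2m. BD 14 rat 5, the rat with the highest A2m, had a Saa4 ratio of 0.16. The second Saa4 probe gave -3.31 in CD 3 rat 4 and 1.74 in BD 14 rat 2, and its difference of BD 14 from CD 14, 0.79 (SE 0.46), exceeded that of the first probe, 0.16 (SE 0.24). Neither passed an unadjusted p of 0.05.

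Hp and Hpx, the scavengers of haemoglobin and haem, both had a higher mean in CD 14 than in CD 3. The log2 ratios of Hp were -0.02, 0.99, 0.21, -1.13 and 0.85 in CD 3 rats 1 to 5 and 0.85, 0.64, 0.72, 2.08, 2.16 and 1.33 in CD 14 rats 1 to 6. In CD 14, 3 rats were above all rats of CD 3. The means were 0.18 ± 0.85 (SD, n = 5) and 1.30 ± 0.68 (n = 6), a difference of 1.12 (SE 0.36, unadjusted p = 0.00498, adjusted p = 0.282). BD 3 had 0.49 ± 0.28 (n = 5) and BD 14 had 1.11 ± 0.50 (n = 6), with the highest values in BD 14 rats 2 (1.86) and 5 (1.60).

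The log2 ratios of Hpx were 0.11, 0.05, -0.89, -1.72 and -0.06 in CD 3 rats 1 to 5 and 0.16, 0.12, -0.10, 1.25, 1.22 and 0.73 in CD 14 rats 1 to 6. In CD 14, 5 rats were above all rats of CD 3. The means were -0.50 ± 0.79 (SD, n = 5) and 0.56 ± 0.59 (n = 6), a difference of 1.06 (SE 0.32, unadjusted p = 0.00335, adjusted p = 0.258). In BD 3 the mean was -0.03 ± 0.28 (n = 5) and in BD 14 it was 0.45 ± 0.41 (n = 6).

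Itih4, the heavy chain 4 of the inter-alpha-trypsin inhibitor family and a target of plasma kallikrein, was the only gene of the set whose values did not overlap between the groups in 1 of the 4 comparisons. Its log2 ratios were 0.07, 0.19, -0.40, 0.14 and 0.06 in CD 3 rats 1 to 5 and 0.92, 0.27, 0.76, 2.10, 1.27 and 0.72 in CD 14 rats 1 to 6. Thus all 6 rats of CD 14 were above all 5 of CD 3, a separation that 0.501% of the probes with a value in all these rats showed in either direction and 0.283% with CD 14 higher. The means were 0.01 ± 0.24 (SD, n = 5) and 1.01 ± 0.63 (n = 6), a difference of 1.00 (SE 0.25, unadjusted p = 0.000602, adjusted p = 0.178). BD 14, at 0.62 ± 0.26 (n = 6), lay between CD 3 and CD 14, and BD 3 was at 0.20 ± 0.32 (n = 5).

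For Hp and Itih4 the signal of the reference varied more than that of the rats. The log2 Cy3 value of Hp reached from 15.55 (CD 14 rat 4) to 18.85 (CD 3 rat 4), a range of 3.30, while the log2 Cy5 value reached from 16.93 to 18.24, a range of 1.31. The Cy3 values of Itih4 reached from 15.45 to 17.88 and its Cy5 values from 16.69 to 18.02. For Hpx the range was smaller in Cy3 (2.08) than in Cy5 (2.38). In the Cy5 channel alone, CD 14 was above CD 3 by 0.23 (Hp), 0.55 (Hpx) and 0.18 (Itih4), and none of these had an unadjusted p under 0.05. With slide as a block the differences of the ratios were 0.59, 0.57 and 0.48, again without an unadjusted p under 0.05. Within slide E, which held 1 rat of each group, they were 0.47, 0.79 and 0.66. How much of the difference comes from the reference channel was not tested.

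**Figure D3:**
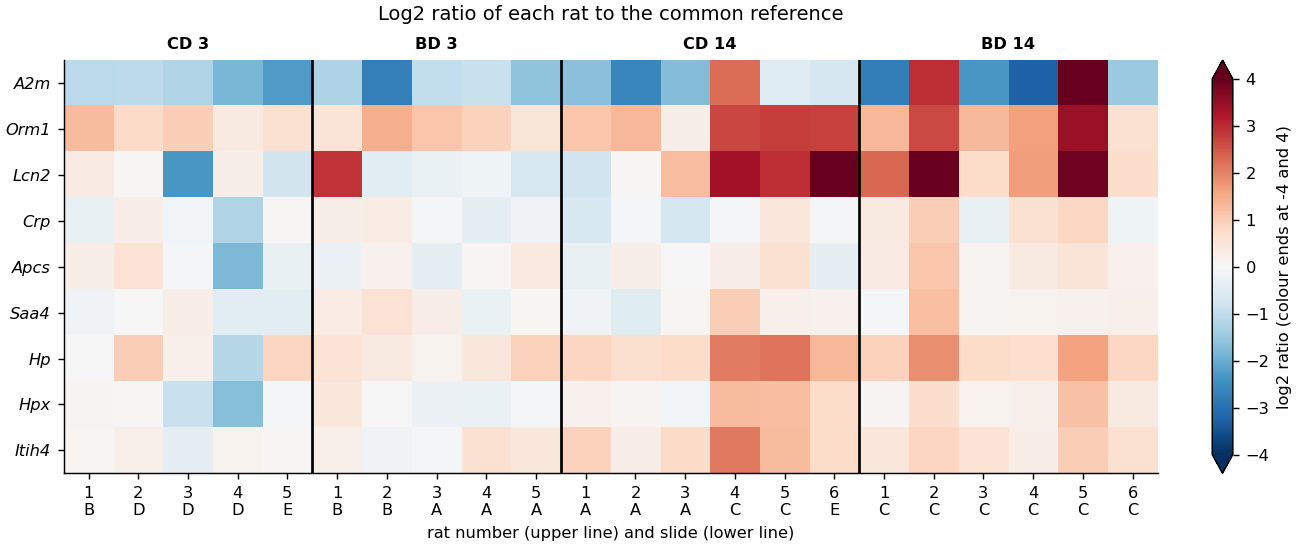
Log2 ratio to the common reference (colour, with ends at -4 and 4) of the 9 genes (rows) in the 22 rats (columns, with rat number and slide), ordered by group. CD 14 rats 4 to 6 and BD 14 rats 2 and 5 stand apart in Orm1, and 3 of them also in A2m. They have the highest values of Lcn2, where BD 3 rat 1 (2.89) lies close to them. CD 3 rat 4 is low in Crp, Apcs, Hp and Hpx.

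Across the set, all 9 genes had a higher mean in CD 14 than in CD 3, with a median difference of 1.00 and a range of 0.09 (Crp) to 2.42 (Lcn2). Over all probes tested the median was 0.03, and 53.4% were higher. With slide as a block 7 of the 9 were higher, with a median of 0.50, and A2m (-0.01) and Apcs (-0.17) were lower. In Cy5 alone all 9 were higher, with a median of 0.32. Without CD 3 rat 4, 7 were higher, with a median of 0.76, and Crp (-0.14) and Apcs (-0.02) were lower. The 5 genes with an unadjusted p under 0.05 (Hp, Hpx, Itih4, Lcn2 and Orm1) were all higher in CD 14, as were 6.85% of all probes at this level. In BD 14 all 9 were above BD 3, with a median difference of 0.48 and a range of 0.10 (Saa4) to 1.92 (Lcn2), beside a median of 0.07 over all probes, of which 58.6% were higher. In Cy5 alone 8 of the 9 were higher, with a median of 0.23, and Crp was lower (-0.15). At an unadjusted p under 0.05, Lcn2 was higher in BD 14, as were 4.76% of all probes. In the other 3 of the 4 comparisons no gene of the set was separated without overlap. Over all probes 2.26% were so separated for BD 14 against BD 3 (1.18% with BD 14 higher), 0.701% for BD 3 against CD 3 (0.476% with BD 3 higher) and 0.773% for BD 14 against CD 14 (0.657% with BD 14 higher). All BD 14 rats shared slide C with no rat of BD 3, and with slide as a block 7 of the 9 differences of BD 14 from BD 3 turned negative, that of Apcs was 0.00 and that of Lcn2 was 0.22.

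Between the diets at 3 months, BD 3 was above CD 3 in 8 of 9 genes, beside 53.6% of all probes, with a median difference of 0.28, a range of -0.01 (A2m) to 0.77 (Lcn2) and unadjusted p-values of 0.177 to 0.995 in limma. Higher values in BD 3 at an unadjusted p under 0.05 were found in 0 of 9 genes and 4.99% of all probes. Without CD 3 rat 4, BD 3 was above CD 3 in 5 of 9 genes, with a median difference of 0.02. In Cy5 alone it was above in 7 of 9, with a median of 0.09. Within slide B, which held CD 3 rat 1 and BD 3 rats 1 and 2, it was above in 5 of 9, with a median of 0.10. BD 14 was above CD 14 in 6 of 9 genes, beside 56.3% of all probes, with a median difference of 0.16 and a range of -0.39 (Itih4) to 0.55 (Crp). This count moved with single rats. It was 2 of 9 without BD 14 rat 2 (median -0.15), 3 of 9 without BD 14 rat 5 (median -0.26), and 4 of 9 without CD 14 rat 1 or 2 (medians -0.13 and -0.08). Without CD 14 rat 4 or 5 it rose to 7 of 9 (medians 0.33 and 0.21), and in Cy5 alone it was 8 of 9 (median 0.11). Crp was the 1 gene with an unadjusted p under 0.05, with a higher value in BD 14, as in 3.79% of all probes. With slide as a block Hp (-1.02), Hpx (-0.79) and Itih4 (-1.07) were at this level instead, all lower in BD 14, beside 1516 of 19434 probes in either direction. Within slide C, which held all rats of BD 14 and CD 14 rats 4 and 5, BD 14 was below CD 14 in 8 of 9 genes, by values from -0.01 (Apcs) to -1.32 (A2m), and above it in Crp (0.19), with a median of -0.91 that slide as a block also gave. CD 14 rats 4 and 5 were among the rats with high Orm1 and Lcn2. The rats of CD 14 with low values were all on slide A, so that slide and rat cannot be told apart in this group.

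**Figure D4:**
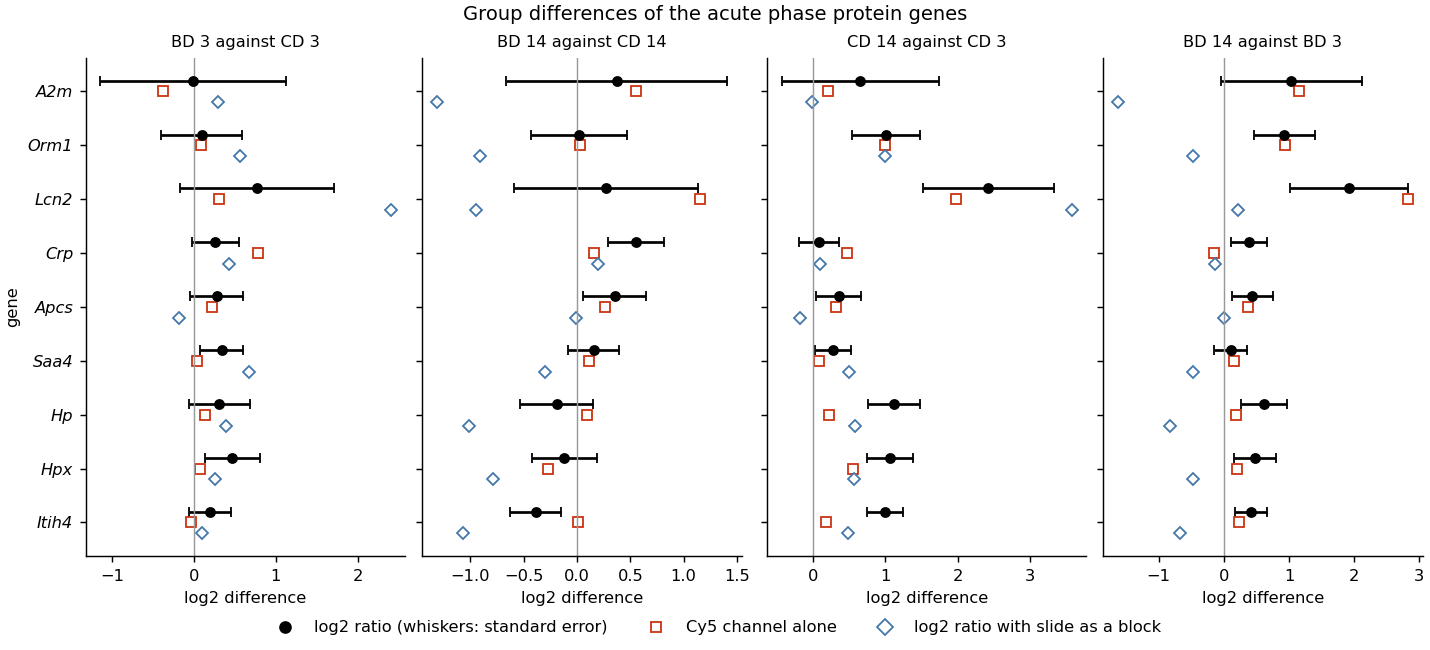
Log2 difference between group means for the 9 genes in the 4 comparisons; black circles are ratios with standard errors as whiskers, red squares the Cy5 channel alone and blue diamonds the ratios with slide as a block. For CD 14 against CD 3 the differences of Hp and Itih4 shrink from 1.12 and 1.00 to 0.23 and 0.18 in Cy5 alone, and for BD 14 against BD 3 most diamonds lie left of 0.

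How far the genes moved together in single rats was examined after removing the mean of each group. Since A2m and Orm1 fell into separate sets of rats, no correlation of these genes with the others of the set is given over all rats. Over the 22 rats the remaining 7 genes form 21 pairs, all with a positive Pearson r, between 0.0655 (Lcn2 and Apcs) and 0.852 (Hp and Hpx), with a median of 0.461. In Cy5 alone 13 of the 21 were positive, with a median r of 0.158 and a lowest value of -0.540. The ratios of a rat share the reference channel. In 10 of the 21 pairs the permutation p of r, adjusted over the 36 pairs of all 9 genes, was under 0.05.

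Hp and Hpx gave r = 0.852 and Spearman's rho = 0.829 (two-sided permutation p = 0.00018 and 0.00045, adjusted p = 0.00324 and 0.0081), and r = 0.771 without the 2 rats farthest from the median of Hp. Crp and Hp gave r = 0.760 and rho = 0.726 (permutation p = 0.00051 and 0.00042, adjusted p = 0.00495 and 0.0081), and r = 0.671 without the 2 rats farthest in Crp. With slide means also removed the Pearson r was 0.883 and 0.761. In Cy5 alone it was 0.132 and -0.366, and without 2 rats it changed. For Hp and Hpx it was 0.593 without the 2 rats farthest in Hp and 0.162 without the 2 farthest in Hpx, and for Crp and Hp it was 0.133 by either gene. Crp and Hpx gave 0.741 in the ratios and 0.668 in Cy5 alone, and Apcs and Hpx gave 0.657 and 0.791.

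Among the rats below the gap of A2m (19 rats) and of Orm1 (17 rats), the 15 pairs with these genes had r between -0.539 (Orm1 and Itih4) and 0.536 (A2m and Itih4), and 0 of the 15 passed an adjusted permutation p of 0.05 (lowest 0.328), 1 an unadjusted p. Both sets of rats were cut on the values of A2m or Orm1 themselves, which narrows their range, and these values say nothing of a relation over all rats.

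The genes most like A2m, by Pearson r of the deviations from group means over 22 arrays among 16468 other genes, were LOC360228 (r = 0.825), named Wfdc21 in GRCr8, Kng1l1 (r = 0.795), a kininogen, and Calhm2 (r = 0.764). LOC360228 ranged from -1.74 in CD 3 rat 5 to 3.57 in BD 14 rat 5, and Kng1l1 from -1.22 in CD 3 rat 4 to 4.38 in CD 14 rat 4. In Cy5 alone the first 2 kept r = 0.803 and 0.767, while Calhm2 had 0.338. For Orm1 they were Serpina10 (r = 0.803), which encodes an inhibitor of coagulation factor X, Emx1 (r = 0.784) and Mt1a (r = 0.779), a metallothionein. For Lcn2 they were Stard6 (r = 0.809), LOC360228 again (r = 0.774) and Pla2g7 (r = 0.762), the plasma platelet-activating factor acetylhydrolase. In Cy5 alone r was 0.646, 0.388 and 0.663 for the genes like Orm1 and 0.515, 0.767 and 0.763 for those like Lcn2, in the order named. Stard6 had a dim signal, with log2 Cy5 values from 3.63 to 6.43. For A2m and Orm1 each r given here includes the gap between the sets of rats, and none was computed without the rats above the gap. The values describe likeness over the 22 arrays, which share the reference and slides, and carry no test.

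Other genes of the acute phase response were taken from fixed lists, and their values are given in the ratios of the main model only. Of 28 other positive acute phase genes that could be tested, 0 passed an adjusted p of 0.05 in limma in any comparison. In CD 14 against CD 3, 13 were higher and 1 lower at an unadjusted p under 0.05, beside 6.85% of all probes for higher ones, and the median difference was 0.60 against 0.03 over all probes. The lowest p was that of Kng1, a kininogen named Kng2 in GRCr8, at 0.08 ± 1.07 (SD, n = 5) in CD 3 and 2.44 ± 1.32 (n = 6) in CD 14 (difference 2.37, SE 0.55, unadjusted p = 0.000316, adjusted p = 0.177). Rat kininogens are a family of closely similar genes, so the gene behind this signal is uncertain. Among the others, chosen after their values were seen, were the fibrinogen chains Fga (1.17) and Fgb (0.78), Lbp (1.09), which binds endotoxin, and the complement component C9 (1.22). The 1 lower gene was Mbl2, a lectin of the complement system (-0.38).

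The median difference of this list was -0.06 for BD 14 against CD 14, beside 0.05 over all probes, with 1 of 28 genes higher at an unadjusted p under 0.05, a share near the 3.79% of all probes. This gene was Hamp, the iron hormone hepcidin (difference 1.31, SE 0.60, unadjusted p = 0.0410, adjusted p = 0.952). In CD 14 the lowest log2 ratio of Hamp was -4.44 and the median was 0.61. The list's median was 0.19 for BD 3 against CD 3 (0.03 over all probes), where 2 genes were higher at this level beside 4.99% of all probes and Lrg1, a leucine-rich glycoprotein of plasma, had the lowest p (difference 1.03, SE 0.32, unadjusted p = 0.00435, adjusted p = 0.435). It was 0.24 for BD 14 against BD 3 (0.07 over all probes), where 2 genes were higher at this level beside 4.76% of all probes and Cd14, a co-receptor of endotoxin, had the lowest p (difference 1.33, SE 0.34, unadjusted p = 0.000877, adjusted p = 0.284).

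Of 16 negative acute phase genes, whose products usually fall in the response, none was lower at an unadjusted p under 0.05 in limma in any of the 4 comparisons. Over all probes 2.11% (BD 3 against CD 3), 0.803% (BD 14 against CD 14), 3.29% (CD 14 against CD 3) and 2.68% (BD 14 against BD 3) were lower at this level, so that 0 of 16 is close to the background. The median difference was 0.09 for CD 14 against CD 3 and -0.04 for BD 14 against CD 14, beside 0.03 and 0.05 over all probes. Serpina7, the thyroxine-binding globulin, was the gene with the lowest p in both comparisons over time, and it was higher at 14 months (1.53, SE 0.55, adjusted p = 0.334, in CD 14 and 1.40, SE 0.55, adjusted p = 0.573, in BD 14).

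Of 22 tested genes for the receptors and signalling of the response, 2 were higher in CD 14 than in CD 3 at an unadjusted p under 0.05, a share near the 6.85% of all probes. Il6st, which encodes gp130, had the lowest p (0.60, SE 0.26, unadjusted p = 0.0326, adjusted p = 0.444). Nfkb1, a subunit of NF-kB, was the only one in BD 14 against CD 14 (0.65, SE 0.29, unadjusted p = 0.0345, adjusted p = 0.952), and Jak2, a kinase of the cytokine receptors, the only one in BD 14 against BD 3 (0.66, SE 0.30, unadjusted p = 0.0385, adjusted p = 0.640), 1 of 22 in each case beside 3.79% and 4.76% of all probes. Single rats lay far from their group in both genes. Nfkb1 had a median of 0.25 and a highest log2 ratio of 1.87 in BD 14, and Jak2 a median of -0.23 and a lowest of -1.35 in BD 3. Of the 10 cytokines, Il6 and Ifng were too dim to be tested and were well above background on 4 and 0 arrays. Among the 8 others, 4 had a higher and 4 a lower mean in CD 14 than in CD 3, and 2 in each direction had an unadjusted p under 0.05, beside 10.1% of all probes in either direction. Tgfb1 had the lowest p there (1.29, SE 0.35, unadjusted p = 0.00121, adjusted p = 0.201) and in BD 14 against BD 3 (0.98, SE 0.35, adjusted p = 0.502).

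Of 13 receptors and partners of the proteins themselves, 8 had a higher mean in CD 14 than in CD 3, 3 of them at an unadjusted p under 0.05 beside 6.85% of all probes. The lowest p was that of Cd163, the scavenger receptor of the haptoglobin-haemoglobin complex (1.14, SE 0.42, unadjusted p = 0.0131, adjusted p = 0.353). Its group means were -1.97 ± 1.04 (SD, n = 5) in CD 3, -1.27 ± 0.76 (n = 5) in BD 3, -0.82 ± 0.51 (n = 6) in CD 14 and -0.94 ± 0.59 (n = 6) in BD 14. Lrp2, the endocytic receptor megalin, was lower in BD 3 than in CD 3 (-0.59, SE 0.26, unadjusted p = 0.0346, adjusted p = 0.664). It had no counterpart at an unadjusted p under 0.05 in BD 14 against CD 14.

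**Figure D5:**
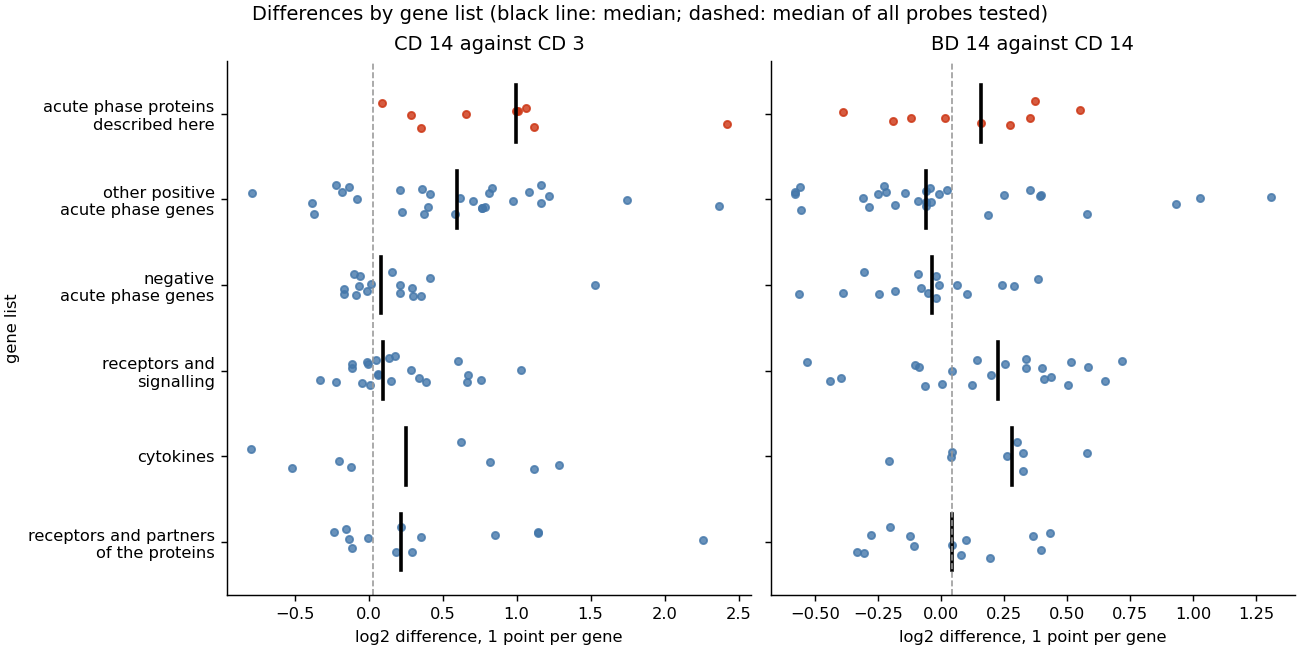
Log2 differences of CD 14 against CD 3 (left) and BD 14 against CD 14 (right), 1 point per gene, for the 9 genes described (red) and 5 lists of related genes (blue), with the median of each as a black line and that of all tested probes as a dashed line. In the left panel the medians of the 9 genes and of the other positive acute phase genes are 1.00 and 0.60, while that of the negative acute phase genes is 0.09.

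No marker of a cell type passed an adjusted p of 0.05 in limma in any comparison. The values of the markers are given in the ratios of the main model only. All 10 markers of Kupffer cells and macrophages had a higher mean in CD 14 than in CD 3, 7 of them at an unadjusted p under 0.05, with a median difference of 1.17, beside 53.4% of all probes with a higher mean, 6.85% higher at this level and a median of 0.03. The mean log2 ratio of the 10 per rat ran from -2.71 to -0.45 in CD 3, from -2.03 to -0.32 in BD 3, from -0.93 to 0.10 in CD 14 and from -1.49 to 0.14 in BD 14. All 10 were also above BD 3 in BD 14, with a median difference of 0.28 and 0 at an unadjusted p under 0.05, beside 58.6% of all probes with a higher mean and 4.76% higher at this level. Between diets, 9 of 10 were higher in BD 3 than in CD 3, with a median difference of 0.68, and 1 of 10 was higher in BD 14 than in CD 14, with a median of -0.15, again with 0 at an unadjusted p under 0.05. Over all probes 53.6% and 56.3% had a higher mean in these comparisons, and 4.99% and 3.79% were higher at this level. For 7 tested markers of neutrophils and monocytes, 5 had a higher mean in CD 14 than in CD 3 beside 53.4% of all probes, 0 of them at an unadjusted p under 0.05, and the mean per rat ran from -1.48 to 0.39 in CD 3 and from -0.33 to 1.07 in CD 14. The 10 hepatocyte markers had a median difference of 0.09 for CD 14 against CD 3, 0.07 for BD 14 against BD 3 and 0.40 for BD 3 against CD 3, with 0 at an unadjusted p under 0.05. CD 3 rat 4, the lowest rat in Crp, Apcs, Hp and Hpx, was also the lowest of CD 3 in the mean of these markers (-1.91, group median -0.42). For BD 14 against CD 14 their median was 0.33, and Hnf4a, named after its value was seen, was higher at this level beside 3.79% of all probes (0.77, SE 0.29, unadjusted p = 0.0145, adjusted p = 0.952).

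All 5 markers of red cells had a lower mean in BD 3 than in CD 3 (median -0.67) and in BD 14 than in CD 14 (median -0.35), and all 5 had a higher mean in BD 14 than in BD 3 (median 0.66), as had 4 of 5 in CD 14 against CD 3 (median 0.35). Over all probes 53.6%, 56.3%, 58.6% and 53.4% had a higher mean in these comparisons, in the same order. Of the red cell markers, Hbb and Slc4a1 were lower in BD 3 than in CD 3 at an unadjusted p under 0.05, beside 2.11% of all probes. Only 2 of 5 adipocyte markers could be tested. Both had a higher mean in BD 3 than in CD 3, in BD 14 than in CD 14 (median 1.02) and in BD 14 than in BD 3, with 1 of them at an unadjusted p under 0.05 in each case (Cidec between diets and Fabp4 over time). Over all probes 4.99%, 3.79% and 4.76% were higher at this level in these comparisons. The 4 tested bile duct markers had a higher mean in BD 14 than in BD 3 (median 0.66), with 0 at an unadjusted p under 0.05. Of the tested markers of lymphocytes (5), stellate cells and fibroblasts (8) and pancreas (3), Nkg7 was higher in CD 14 than in CD 3 and Pdgfrb was higher in BD 3 than in CD 3 at this level, beside 6.85% and 4.99% of all probes. The single markers in this paragraph were named after their values were seen. The part of these cells in the levels of the acute phase genes was not tested.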

How the data were processed

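Liver RNA of 22 rats was measured on SurePrint G3 rat arrays, 1 array per rat. The authors extracted processed intensities with Agilent Feature Extraction (version 10.7.3.1 in the processing notes and 10.10.1.1 in the file headers), which subtracts background and applies Lowess normalization of the dyes. The deposited log10 values give the processed Cy5 signal over the processed Cy3 signal. The authors also deposited log2 values of 3017 probes, which include those of Lcn2, Hpx and Itih4. The paper gives the same number, 3017, for the genes that its ANOVA called differentially expressed. In the limma F test over the 4 groups these genes did not pass here, with adjusted p-values of 0.372, 0.344 and 0.224. With each probe centred on BD 14, all but 1 of the authors' 22 columns came within 0.01 of an array of their own group in 18.8% to 24.7% of the probes. Of the 5 CD 3 columns, 4 were closest to CD 3 rats 2 to 5, each under another number, and the remaining one came that near to no array in more than 1.02% of the probes, so the 5 were used as a group only. This comparison was also chosen after seeing the data.

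After conversion to log2, spots flagged as controls or non-uniform were removed and the spots of each probe averaged, without scaling between arrays. Probes were kept for testing where, in 1 group or more, every array had a share of 0.5 or more of the probe's spots well above the Cy5 background. limma 3.58.1 in R 4.3.3 fitted the means of the 4 groups and moderated variances by eBayes (3.37 prior degrees of freedom), with the Benjamini-Hochberg adjustment applied to all 19434 probes and a threshold of 0.05. Precision is limited by the number of arrays. Correlations used 100000 permutations within groups. A gene was said to form separate sets of rats where the widest gap between sorted values exceeded 25% of their range and left 2 or more rats on each side. Python 3.11.15, numpy 2.4.6, pandas 2.3.3, scipy 1.17.1 and matplotlib 3.10.9 were used, and the steps were tested on simulated data.

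The 9 genes, the lists and the tests were chosen with earlier results of these data known. The genes named are the 9, from each list the gene with the lowest unadjusted p below 0.05 per comparison, and the 3 most like A2m, Orm1 and Lcn2. Fga, Fgb, Lbp, C9, Mbl2 and the single cell type markers fall outside this rule and were named after their values were seen. Alternatives were normexp background correction (offset 50) with loess, quantile-normalized Cy5 signals without the reference, centring of arrays on their median, no filter and a strict filter, outlier spots kept, saturated spots left out, slide as a fixed or random block, values within slides, the rat number as a block, array weights, only the groups compared, the F test and Tukey's HSD of the methods, any probe of a gene, and leaving out each array. Chosen after seeing the data were the deposited log2 values and the fit without the arrays richest in non-uniform spots. The numbers of the rats did not pair the samples, as deviations of same-numbered rats correlated between -0.296 and 0.360.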

Additional observations from a re-analysis of the deposited data

Results flagged for a closer look

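Among the values of single rats, 3 stood apart from their group, in 36 combinations of gene and group examined, where chance gives about 1 in 20. Lcn2 of BD 3 rat 1 had a log2 ratio of 2.89, and the next rat of the group had -0.16. Saa4 of BD 14 rat 2 had 1.20, with the next rat at 0.20. Itih4 of CD 3 rat 3 had -0.40, and the next lowest rat had 0.06. The distance to the nearest rat took up a share of 0.869, 0.791 and 0.778 of the whole range of the group.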

How the results depend on the processing

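Of the 9 genes, the count passing the adjusted threshold remained 0 in every comparison under all alternatives that gave a test. It also remained 0 for the interaction, which was not fitted with only the groups compared or with Tukey's HSD. Counts at an unadjusted p under 0.05 were less firm. For CD 14 against CD 3 the count of 5 became 1 in Cy5 alone, 1 with slide as a fixed block, 2 with array weights and 3 with Tukey's HSD, and 4 to 5 when single arrays were left out. For BD 14 against CD 14 the count of 1 (Crp) became 2 with normexp and loess, 3 with slide as a fixed block, where Hp, Hpx and Itih4 were lower in BD 14, and 0 in Cy5 alone, with median-centred arrays, with only these groups, with Tukey's HSD and without the 2 arrays richest in non-uniform spots. Leaving out single arrays gave 0 to 1, with Crp passing in 5 of 22 such fits. For BD 14 against BD 3 the count of 1 (Lcn2) became 0 with normexp and loess, in Cy5 alone, with median-centred arrays, with array weights, with Tukey's HSD and with slide as a fixed or random block, 4 with only these groups, and 0 to 2 when single arrays were left out (0 without CD 3 rat 5, BD 3 rat 3, 4 or 5 or BD 14 rat 1, 2 or 5, and 2 without CD 14 rat 3 or 4 or BD 14 rat 6). For BD 3 against CD 3 the count of 0 became 1 (Crp) in Cy5 alone. The replicate block, with rats of the same number paired, took the count of BD 14 against BD 3 from 1 to 0 and that of CD 14 against CD 3 from 5 to 4. Of the 21 pairs of genes, 10 passed in the ratios, 4 in Cy5 alone, 5 with slide means removed and 14 with normexp and loess. The deposited log2 values gave 2.82 (Lcn2), 1.11 (Hpx) and 1.01 (Itih4) for CD 14 against CD 3, with a CD 3 group in which 1 column matched none of the 5 arrays. The cause of these changes was not tested. On arrays, 5 or 6 rats per group and the spread of the reference signal limit what can be seen, and no dye swap tells the dyes from the samples.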
